A study of Mus musculus with 6 samples.

Results

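The genes described here encode the centromere, the kinetochore and the spindle assembly checkpoint. They were chosen by name from a fixed list of 44 symbols, and all 44 were found among the 23060 gene names of the expression table and are placed on 19 chromosomes. The study sequenced RNA from wild-type HL-1 cells, which the labels give as mouse atrial cardiomyocytes, to ask which transcripts change on tachypacing. The tachypaced group had 3 libraries and the control group 3. Tachypacing is rapid electrical stimulation and stands in culture for the fast atrial rate of atrial fibrillation. Both groups grew in Claycomb medium with serum, antibiotics, norepinephrine and glutamine, and the labels give neither the rate nor the duration of pacing. Whether the replicates came from separate cultures is not in the labels, and p-values here rest on a spread among libraries that could be technical alone. Values are FPKM, fragments per kilobase of transcript scaled to the mapped fragments of the library, so levels can be compared between genes per length. No read depth can be given, since the low values showed no steps of whole reads.

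The kinetochore is the protein assembly that forms on the centromere of each chromosome and binds the microtubules of the mitotic spindle. A nucleosome that holds the histone variant CENP-A marks its place, an inner layer of CENP proteins sits on that nucleosome through the cell cycle, and an outer layer built at mitosis holds the microtubule ends. Kinetochores without microtubules send the checkpoint signal that keeps the cell from separating its chromosomes. Most of these genes are transcribed mainly in dividing cells, and adult heart muscle has few of those, while HL-1 is a line that divides in culture.

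The libraries went against their label in the markers of cell type. Of 10 cardiomyocyte markers, Myh6, Myl7, Actc1, Nkx2-5 and Gata4 stood at 0 FPKM throughout, and no value of the other 5 was above 0.342 FPKM. These 10 markers summed to 0.107 to 0.365 FPKM in tachypaced libraries and to 0.348 to 0.431 FPKM in control libraries. The 10 macrophage markers summed to 1651 to 1830 FPKM in tachypaced libraries and to 1325 to 1491 FPKM in control libraries. In tachypaced libraries 3 of these 10 rose and 0 fell (limma, adjusted p threshold 0.05, with 8 higher and 0 lower at an unadjusted p under 0.05), where 2.3% of all tested genes rose and 10.8% were higher at an unadjusted p under 0.05. Without control replicate 1, 7 of the 10 rose, where 11.2% of all tested genes did. Without any other single library 0 of the 10 rose, where at most 12 of all 10361 tested genes did. In those fits 4 to 7 of the 10 were higher at an unadjusted p under 0.05, against 7.36% to 9.27% of all tested genes. The part of this shift in the results below was not tested. In bulk RNA, fewer cells of a type, such as cells in mitosis, and less RNA per cell cannot be told apart.

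In tachypaced libraries 12 of the 44 genes fell and 0 rose. The genes that fell were Cenpa, Hjurp, Mis18a, Cenph, Nuf2, Nsl1, Ska3, Cenpe, Cenpf, Bub1, Bub1b and Sgo2a, and their tachypaced means lay between 58.3% and 78.2% of the control means. The test was limma on log2(FPKM + 1) over the 10361 genes whose mean reached 1 FPKM, all 44 included, with Benjamini-Hochberg adjustment over those genes. By that test 3.22% of all tested genes fell and 2.3% rose, a split that depends on scaling: with median of ratios scaling 1.74% fell and 2.59% rose, and after rescaling to a common total 8.9% fell and 2.41% rose. Of the 44 genes, 39 had a lower mean log2 value in tachypaced libraries (among them Cenpx, which turned to 0.004 with median of ratios scaling), as had 58.9% of all tested genes. At an unadjusted p under 0.05, 27 of the 44 were lower and 1 was higher, against 19.4% lower and 10.8% higher of all tested genes. The median log2 fold change was -0.28 (range -0.66 to 0.15), against -0.04 for all tested genes. In 24 of the 44 genes (54.5%) every tachypaced library lay below every control library, as in 22.4% of all tested genes. In 3 (Cenpb, Mis12 and Ska2) every tachypaced library lay above every control library, as in 12.6% of all tested genes, and in 17 the groups overlapped. The adjusted p of the 12 genes ran from 0.0435 to 0.0478, just inside the threshold, and another 11 genes lay between 0.05 and 0.1.

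These calls depend on the settings and on which libraries enter. With no filter on low values or by limma without trend 0 of the 44 genes passed, against 24 and 27 lower at an unadjusted p under 0.05, and after quantile normalization 1 fell. Of all tested genes 0 fell with either of the first settings and 4 of 10361 after quantile normalization. Without control replicate 1, 26 of the 44 genes fell and 0 rose, the 12 above among them, while calls over all tested genes grew as well, to 18.8% that fell and 11.2% that rose. Without any other single library 0 of the 44 passed by limma, and at most 1 of all 10361 tested genes fell. In those fits 21 to 28 of the 44 were lower at an unadjusted p under 0.05, against 11.5% to 17.2% of all tested genes. Control replicate 1 had the lowest of the 3 control values in 31 of the 44 genes. On the log2(FPKM + 1) scale the 44 genes averaged, as a difference from the control mean, -0.30, -0.32 and -0.19 in tachypaced replicates 1, 2 and 3, against -0.10, 0.02 and 0.09 in control replicates 1, 2 and 3. Their FPKM summed to 475.6, 477.7 and 513.9 in the tachypaced libraries, against 545.3, 603.5 and 633.2 in the control libraries. The groups did not overlap in this sum, with tachypaced replicate 3 and control replicate 1 next to each other.

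**Figure D1:**
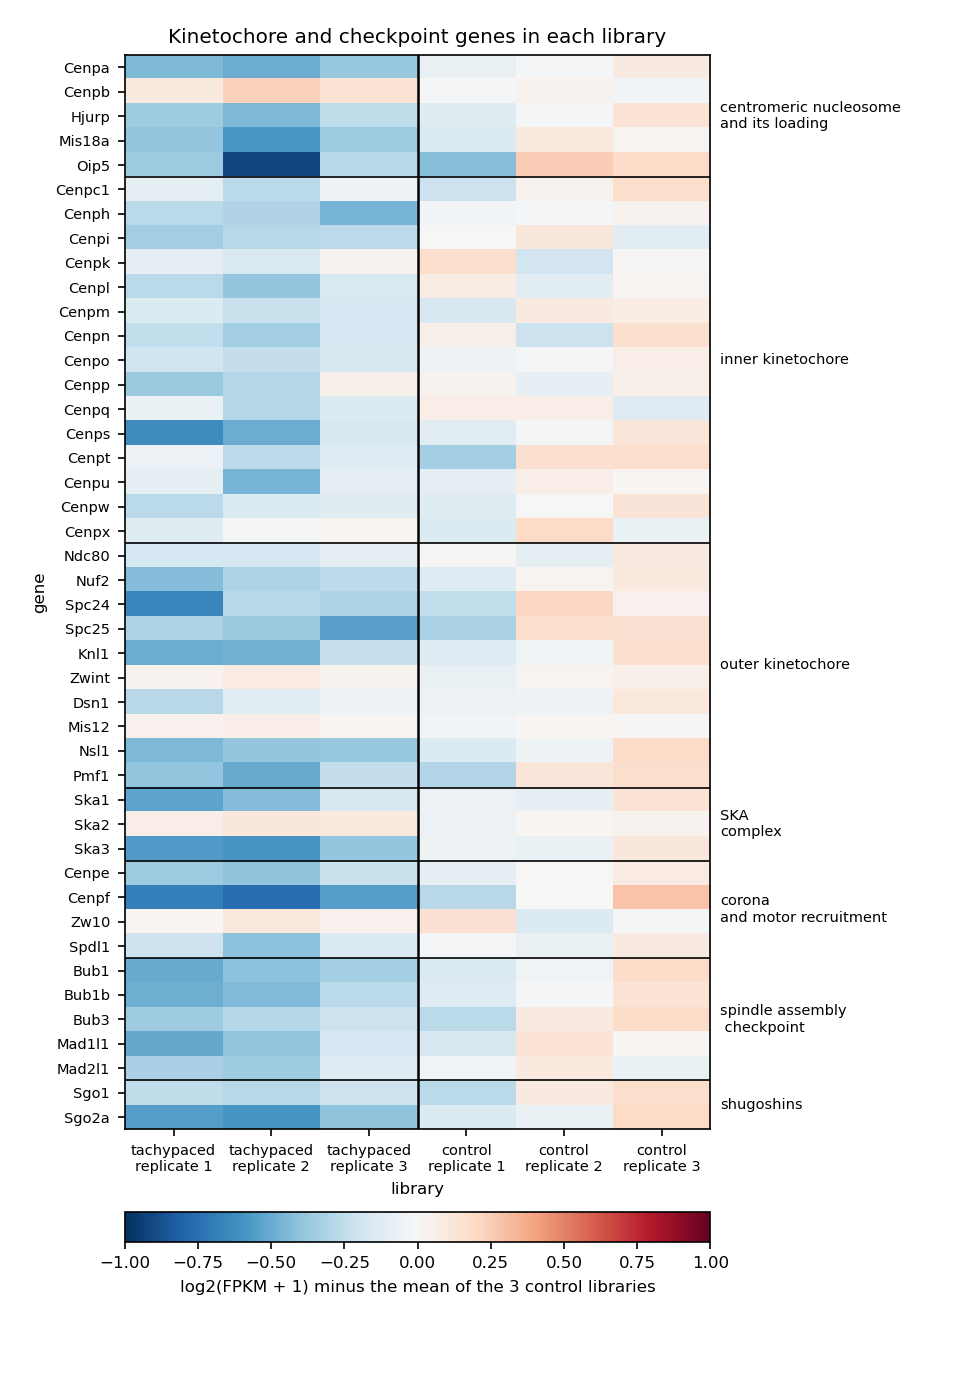
Each row is a gene and each column a library, and the colour gives log2(FPKM + 1) minus the mean of the 3 control libraries, with genes grouped by role. Most rows are blue (lower) in the 3 tachypaced columns, with Cenpb, Ska2, Mis12, Zwint and Zw10 as the 5 genes whose mean was higher there, and control replicate 1 has the lowest of the 3 control values in 31 rows.

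**Figure D2:**
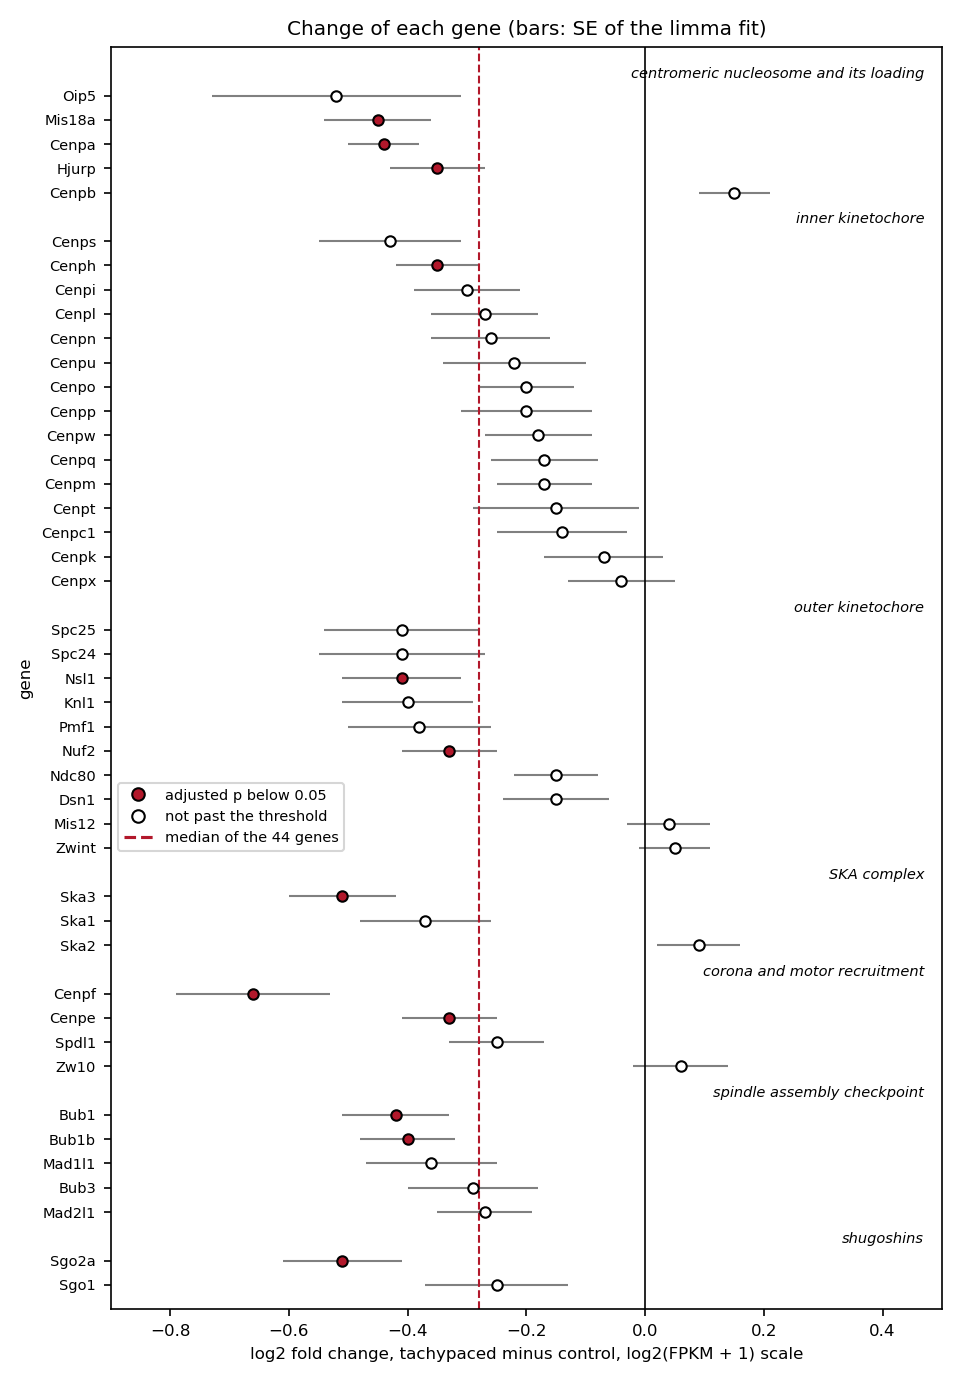
The log2 fold change (tachypaced minus control) of each of the 44 genes is drawn with its SE from limma, sorted within each role. Filled points mark the 12 genes past the adjusted p threshold of 0.05, and the dashed line is the median of the 44 genes at -0.28.

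Because many of these genes lay lower together, their promoters were read for letters that are known in promoters of mitotic genes. Sequences were RefSeq windows of GRCm38.p6 from 250 bases before to 50 after a start, held for 41 of the 44 genes. The cell cycle homology region, or CHR (TTTGAA or TTCGAA, on either strand), is known as a binding site of the MuvB core of the DREAM complex. It was found in 20 of the 41 genes (48.8%), against 21.7% of all 27025 genes with a window and 16.6% of those tested here. Within 50 bases of the start it was found in 15 of the 41 (36.6%), against 6.12% of all genes. Of the 11 genes that fell and have a window, 6 held it within 50 bases of the start, and so did 9 of the 30 other genes. The matches of those 6 are shown in 30 bases each, 5′ to 3′ on the strand of the gene, with the CHR in capitals (TTCAAA is TTTGAA read on the opposite strand).
Cenpa (chr5:30666890-30666919, plus strand): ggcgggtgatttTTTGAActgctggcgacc
Cenpf (chr1:189688067-189688096, minus strand): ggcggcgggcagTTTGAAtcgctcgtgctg
Hjurp (chr1:88277543-88277572, minus strand): tgcgtaaatactTTTGAAagaccctattag
Bub1 (chr2:127831828-127831857, minus strand): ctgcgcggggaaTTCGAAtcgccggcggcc
Bub1b (chr2:118598231-118598260, plus strand): ctgcgtcaagagacgttaaaTTTGAAactt
Ska3 (chr14:57826160-57826189, minus strand): gcctgcgcaggaTTCAAAtgtgtagcgcgt
Similar matches lay in the windows of genes that did not pass the test. They are shown for 3 genes of the outer kinetochore.
Knl1 (chr2:119047138-119047167, plus strand): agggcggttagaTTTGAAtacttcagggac
Spc25 (chr2:69206172-69206201, minus strand): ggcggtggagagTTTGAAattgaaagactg
Ndc80 (chr17:71526811-71526840, minus strand): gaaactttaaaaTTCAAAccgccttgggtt

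The CCAAT box (CCAAT on either strand), the letters that the factor NF-Y binds, was found in 27 of the 41 genes (65.9%), against 41.1% of all genes and 43.7% of those tested here. It was found in 8 of the 11 genes that fell and in 19 of the 30 others. Letters of E2F sites (TTTCCCGC, TTTGGCGC, TTTCGCGC or TTTGCCGC, on either strand) were found in 6 of the 41 (14.6%), against 2.6% of all genes and 5.07% of those tested here. They were found in 1 of the 11 genes that fell and in 5 of the 30 others. Matches of different motifs shared bases in 1 case, the CHR and CCAAT letters of Cenpw. The 120 bases before the start are shown for a pair of genes that fell, Cenpa and Bub1, and for a pair of genes that did not fall, Ska2 and Mis12, with CCAAT or its complement ATTGG in capitals. Each of the 4 holds 2 matches in this stretch, so these letters were present on both sides of the test. A match is a description of these letters and does not show binding.
Cenpa (chr5:30666766-30666885, plus strand): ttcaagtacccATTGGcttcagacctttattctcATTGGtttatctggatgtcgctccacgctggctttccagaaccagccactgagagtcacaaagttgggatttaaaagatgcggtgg
Bub1 (chr2:127831860-127831979, minus strand): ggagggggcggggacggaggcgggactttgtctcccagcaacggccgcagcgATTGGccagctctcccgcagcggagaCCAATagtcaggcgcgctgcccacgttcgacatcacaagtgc
Ska2 (chr11:87109141-87109260, plus strand): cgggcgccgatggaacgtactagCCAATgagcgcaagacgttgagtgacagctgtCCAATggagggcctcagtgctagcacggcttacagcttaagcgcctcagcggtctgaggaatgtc
Mis12 (chr11:71019491-71019610, plus strand): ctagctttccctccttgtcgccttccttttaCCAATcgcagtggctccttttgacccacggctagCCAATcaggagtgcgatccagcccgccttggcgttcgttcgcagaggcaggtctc

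The centromeric nucleosome and its loading factors held the most abundant gene of the set. Of its 5 genes 3 fell and 0 rose, where 3.22% of all tested genes fell and 2.3% rose. Cenpa, the histone H3 variant that marks the centromere (chromosome 5, 30666777 to 30674830, GRCm38), had 47.7, 46.2 and 50.1 FPKM in tachypaced libraries, against 62.0, 64.8 and 69.6 FPKM in control libraries. The groups did not overlap, and the tachypaced mean was 73.3% of the control mean (log2 fold change -0.44, SE 0.06, limma adjusted p = 0.0435). Hjurp, the chaperone that deposits CENP-A (chromosome 1, 88262471 to 88277633), had 27.7, 25.9 and 29.8 FPKM in tachypaced libraries, against 32.9, 35.3 and 39.5 FPKM in control libraries (log2 fold change -0.35, SE 0.08, limma adjusted p = 0.0458). Mis18a, of the complex that prepares centromeres for new CENP-A (chromosome 16, 90719312 to 90727404), had 5.83, 5.0 and 5.97 FPKM in tachypaced libraries, against 7.16, 8.69 and 8.18 FPKM in control libraries (log2 fold change -0.45, SE 0.09, limma adjusted p = 0.0435). In both genes every tachypaced value lay below every control value. Oip5, the partner of Mis18a in that complex, averaged 2.22 ± 0.707 FPKM in tachypaced and 3.63 ± 1.10 FPKM in control libraries (SD, n = 3 each). Its groups overlapped through control replicate 1 at 2.36 FPKM, and it did not pass (limma adjusted p = 0.134). Cenpb, which binds a DNA motif of centromeric repeats, stood at 17.6 ± 0.883 FPKM in tachypaced and 15.7 ± 0.367 FPKM in control libraries, with no overlap and no call (log2 fold change 0.15, limma adjusted p = 0.129). In all 6 libraries the order of levels was Cenpa, Hjurp, Mis18a and Oip5.

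The inner kinetochore was read from 15 genes of the constitutive centromere-associated network. Of these 1 fell (6.67%) and 0 rose, where 3.22% of all tested genes fell and 2.3% rose. At an unadjusted p under 0.05 by limma, 6 were lower and 0 higher, against 19.4% lower and 10.8% higher of all tested genes. The median log2 fold change was -0.20 (range -0.43 to -0.04), against -0.04 for all tested genes. Cenph (chromosome 13, 100759674 to 100775899), whose protein works with CENP-I, CENP-K and CENP-M, had 7.07, 6.89 and 6.07 FPKM in tachypaced libraries, against 8.54, 8.67 and 9.0 FPKM in control libraries. Its groups did not overlap (log2 fold change -0.35, SE 0.07, limma adjusted p = 0.0435). Its partners did not pass, with Cenpi at 2.32 ± 0.108 FPKM in tachypaced and 3.09 ± 0.311 FPKM in control libraries. Cenpk stood at 4.26 ± 0.355 and Cenpm at 9.30 ± 0.320 FPKM in tachypaced libraries, against 4.55 ± 0.702 and 10.7 ± 1.12 FPKM in control libraries.

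The most abundant gene of this layer was Cenpx, whose small histone-fold protein pairs with CENP-S. It had 44.6, 48.2 and 49.7 FPKM in tachypaced libraries, against 44.3, 56.2 and 46.3 FPKM in control libraries. The groups overlapped, and the log2 fold change was -0.04 (SE 0.09, limma adjusted p = 0.805). Its partner Cenps averaged 3.06 ± 0.709 FPKM in tachypaced and 4.42 ± 0.432 FPKM in control libraries, with no overlap and an adjusted p of 0.0681 by limma. Cenpt, which links the inner to the outer kinetochore, was the least abundant of the 44 genes at 1.41 ± 0.174 FPKM in tachypaced and 1.71 ± 0.515 FPKM in control libraries. Cenpw, the histone-fold partner of Cenpt, stood at 5.01 ± 0.334 FPKM in tachypaced and 5.80 ± 0.593 FPKM in control libraries. The other link to the outer layer, Cenpc1, averaged 5.05 ± 0.479 FPKM in tachypaced and 5.69 ± 0.900 FPKM in control libraries, with overlap (limma adjusted p = 0.416).

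Cenpl and Cenpn, whose proteins form a pair that reads the CENP-A nucleosome, averaged 4.99 ± 0.473 and 5.89 ± 0.418 FPKM in tachypaced libraries, against 6.21 ± 0.463 and 7.28 ± 1.09 FPKM in control libraries. The groups did not overlap in Cenpl and overlapped in Cenpn. Of the CENP-O, CENP-P, CENP-Q and CENP-U group, Cenpo and Cenpu lay lower in every tachypaced library, at means of 2.51 ± 0.0993 and 1.68 ± 0.376 FPKM, against 3.04 ± 0.165 and 2.11 ± 0.170 FPKM in control libraries. Cenpp and Cenpq overlapped between groups, at 5.82 ± 1.09 and 6.97 ± 0.614 FPKM in tachypaced and 6.78 ± 0.386 and 7.94 ± 0.689 FPKM in control libraries. None of these 6 genes passed (limma adjusted p from 0.082 to 0.243), and Cenpl, Cenpn and Cenpo were lower at an unadjusted p under 0.05.

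The outer kinetochore comprises the KNL1, MIS12 and NDC80 complexes. In this layer 2 of 10 genes fell and 0 rose, where 3.22% of all tested genes fell and 2.3% rose. At an unadjusted p under 0.05, 6 were lower and 0 higher, against 19.4% lower and 10.8% higher of all tested genes. The median log2 fold change of the 10 genes was -0.36, against -0.04 for all tested genes. Nuf2 (chromosome 1, 169497934 to 169531464), a microtubule-binding subunit of the NDC80 complex, had 14.0, 15.3 and 15.8 FPKM in tachypaced libraries, against 17.5, 19.6 and 20.6 FPKM in control libraries. Its groups did not overlap (log2 fold change -0.33, SE 0.08, limma adjusted p = 0.046). The other subunits of that complex did not pass. Ndc80 stood at 7.30 ± 0.257 FPKM in tachypaced and 8.22 ± 0.579 FPKM in control libraries, and Spc24 at 4.04 ± 0.688 FPKM in tachypaced and 5.72 ± 1.06 FPKM in control libraries, both without overlap. Spc25 averaged 8.63 ± 0.774 FPKM in tachypaced and 11.9 ± 2.31 FPKM in control libraries, with control replicate 1 at 9.22 FPKM inside the tachypaced range. The order of levels was Nuf2, Spc25, Ndc80 and Spc24 in all 6 libraries.

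Nsl1 (chromosome 1, 191063012 to 191086474), of the MIS12 complex, had 3.11, 3.30 and 3.32 FPKM in tachypaced libraries, against 4.10, 4.41 and 5.43 FPKM in control libraries (log2 fold change -0.41, SE 0.10, limma adjusted p = 0.0478). Every tachypaced value lay below every control value. The other subunits of the MIS12 complex differed among themselves. Pmf1, the most abundant, averaged 26.3 ± 2.56 FPKM in tachypaced and 34.7 ± 6.0 FPKM in control libraries, with overlap (log2 fold change -0.38, limma adjusted p = 0.0842). Dsn1 stood at 4.01 ± 0.399 FPKM in tachypaced and 4.56 ± 0.361 FPKM in control libraries, with overlap. Mis12 itself stood at 5.47 ± 0.0958 FPKM in tachypaced and 5.29 ± 0.111 FPKM in control libraries, with every tachypaced value above every control value and an adjusted p of 0.693 by limma.

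Knl1, the scaffold to which checkpoint proteins bind, averaged 3.50 ± 0.470 FPKM in tachypaced and 4.93 ± 0.632 FPKM in control libraries, with no overlap and an adjusted p of 0.0576 by limma. Zwint, which binds KNL1, was the most abundant gene of the layer, with 35.7, 36.7 and 35.5 FPKM in tachypaced libraries, against 32.8, 35.4 and 36.0 FPKM in control libraries. Its groups overlapped (log2 fold change 0.05, SE 0.06, limma adjusted p = 0.578).

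The SKA complex couples the NDC80 complex to microtubule ends. In it 1 of 3 genes fell and 0 rose, where 3.22% of all tested genes fell and 2.3% rose. Ska3 (chromosome 14, 57806561 to 57826185) had 3.28, 3.20 and 3.84 FPKM in tachypaced libraries, against 5.11, 5.03 and 5.85 FPKM in control libraries. No values overlapped, and the tachypaced mean was 64.6% of the control mean (log2 fold change -0.51, SE 0.09, limma adjusted p = 0.0435). Ska1 averaged 2.31 ± 0.450 FPKM in tachypaced and 3.27 ± 0.365 FPKM in control libraries, also without overlap (limma adjusted p = 0.074). Ska2 had 5.19, 5.39 and 5.33 FPKM in tachypaced libraries, against 4.68, 4.98 and 5.06 FPKM in control libraries, the opposite order without overlap or a call (log2 fold change 0.09, SE 0.07, limma adjusted p = 0.377). Ska2 was above Ska3 in 3 of 3 tachypaced libraries and in 0 of 3 control libraries.

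Of the 4 genes of the corona and of motor recruitment, 2 fell and 0 rose, against 3.22% and 2.3% of all tested genes. Cenpf (chromosome 1, 189640606 to 189688086), a large coiled-coil protein of the outer corona, had the largest log2 fold change of the 44 genes. It had 5.16, 4.82 and 5.75 FPKM in tachypaced libraries, against 7.13, 8.83 and 11.0 FPKM in control libraries. The groups did not overlap, and the tachypaced mean was 58.3% of the control mean (log2 fold change -0.66, SE 0.13, limma adjusted p = 0.0435). Its CHR letters lie at bases 3 to 8, counted from the start as 1, as printed above. Those of Spdl1, which did not pass, lie at bases 2 to 7, and a link between these letters and the change was not tested. Cenpe, the kinesin that carries chromosomes to the spindle equator (chromosome 3, 135212537 to 135273611), had 7.50, 7.28 and 8.37 FPKM in tachypaced libraries, against 9.36, 9.93 and 10.6 FPKM in control libraries (log2 fold change -0.33, SE 0.08, limma adjusted p = 0.046). Spdl1, or Spindly, which brings dynein to kinetochores, averaged 14.0 ± 1.41 FPKM in tachypaced and 16.8 ± 1.03 FPKM in control libraries, without overlap (limma adjusted p = 0.0855). Zw10, a subunit of the RZZ complex that also serves in membrane traffic outside mitosis, had 21.3, 22.7 and 21.7 FPKM in tachypaced libraries, against 23.4, 19.0 and 20.7 FPKM in control libraries. Its tachypaced values lay inside the control range (log2 fold change 0.06, SE 0.08, limma adjusted p = 0.637).

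**Figure D3:**
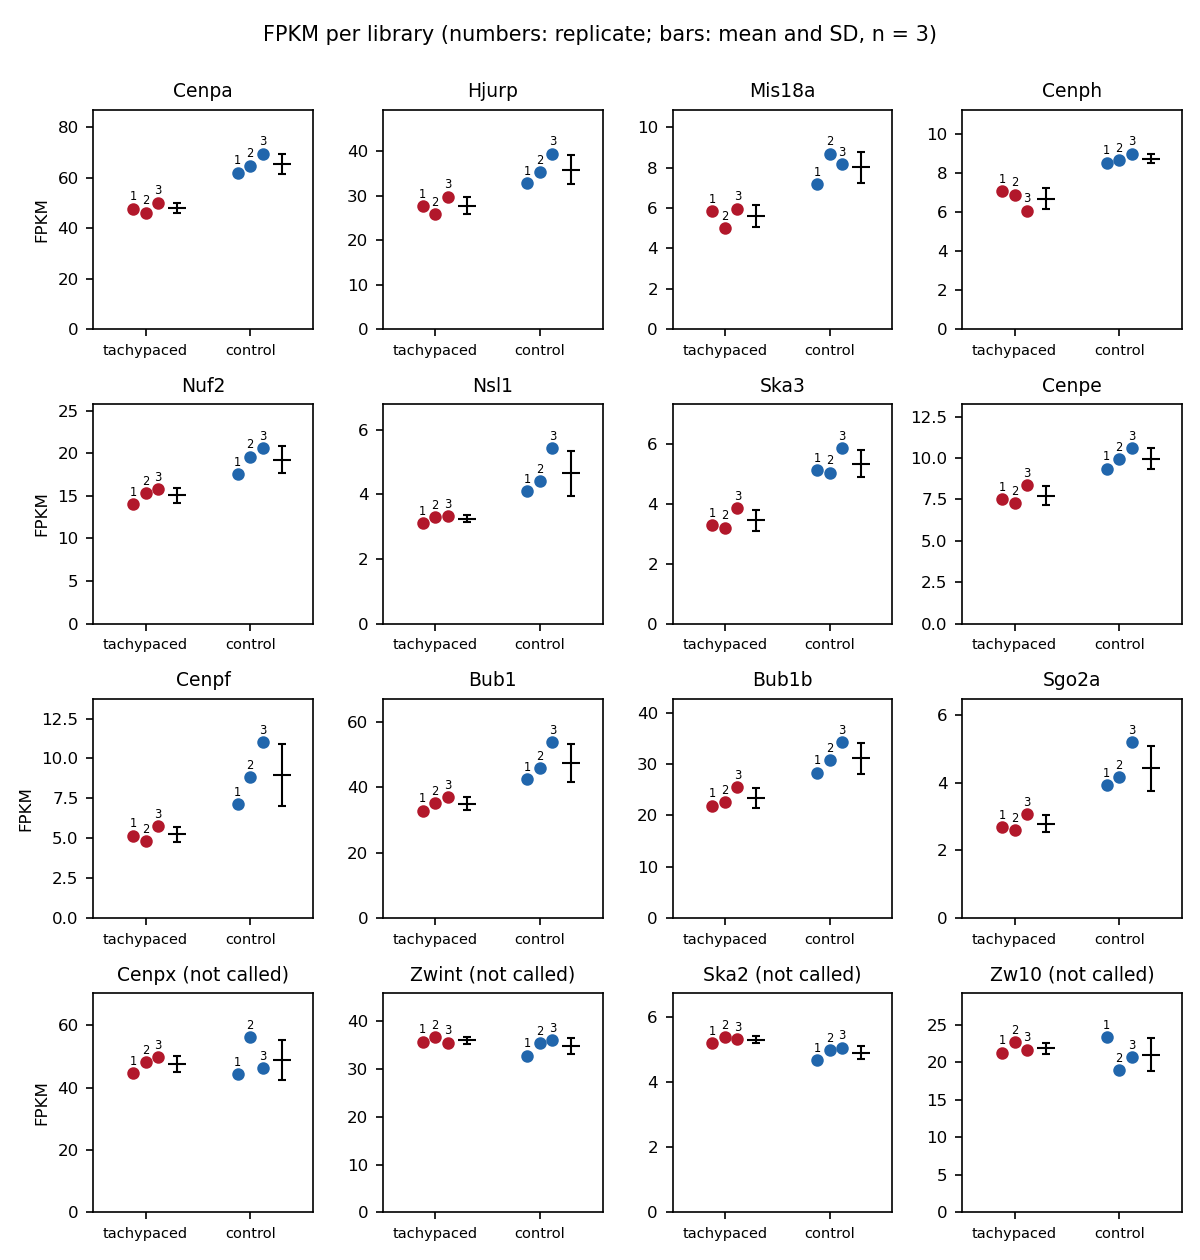
FPKM in each library is shown for the 12 genes that fell and for 4 genes that were the most abundant of their role and did not, with tachypaced libraries left and control libraries right, replicate numbers above the points, and mean and SD (n = 3) as bars. In the 12 genes of the upper panels the groups do not overlap, while Cenpx, Zwint and Zw10 overlap and Ska2 lies higher in the tachypaced libraries.

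All 5 spindle assembly checkpoint genes were lower in tachypaced libraries at an unadjusted p under 0.05, and 2 of them fell by the adjusted test and 0 rose. Of all tested genes 19.4% were lower at that unadjusted p, 3.22% fell and 2.3% rose. Without control replicate 1 all 5 fell, where 18.8% of all tested genes did. With any other single library left out, 0 of the 5 fell, and at most 1 of all 10361 tested genes did. Bub1, the checkpoint kinase (chromosome 2, 127801122 to 127831865), had 32.9, 35.2 and 37.0 FPKM in tachypaced libraries, against 42.5, 45.9 and 53.8 FPKM in control libraries. The groups did not overlap (log2 fold change -0.42, SE 0.09, limma adjusted p = 0.0435). Bub1b, which encodes the checkpoint inhibitor BUBR1 (chromosome 2, 118598211 to 118641591), had 21.9, 22.6 and 25.5 FPKM in tachypaced libraries, against 28.3, 30.8 and 34.2 FPKM in control libraries (log2 fold change -0.40, SE 0.08, limma adjusted p = 0.0435). Its groups did not overlap either. Bub3, their shared partner, averaged 29.1 ± 1.43 FPKM in tachypaced and 35.9 ± 5.81 FPKM in control libraries, with control replicate 1 at 29.4 FPKM inside the tachypaced range (limma adjusted p = 0.115). Mad1l1 and Mad2l1, which start the checkpoint signal at unattached kinetochores, stood at 3.31 ± 0.529 and 6.57 ± 0.659 FPKM in tachypaced libraries, against 4.53 ± 0.567 and 8.12 ± 0.535 FPKM in control libraries, both without overlap (limma adjusted p = 0.0784 and 0.0777). The 5 genes summed to 91.55, 96.06 and 104.3 FPKM in tachypaced libraries, against 112.0, 128.3 and 140.9 FPKM in control libraries.

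Shugoshins protect centromeric cohesin until anaphase. Of the 2 genes 1 fell and 0 rose, against 3.22% and 2.3% of all tested genes. Sgo2a (chromosome 1, 57995971 to 58025899) had 2.69, 2.60 and 3.08 FPKM in tachypaced libraries, against 3.93, 4.17 and 5.20 FPKM in control libraries. Every tachypaced value lay below every control value, and the tachypaced mean was 63.0% of the control mean (log2 fold change -0.51, SE 0.10, limma adjusted p = 0.0435). Sgo1 averaged 2.08 ± 0.0805 FPKM in tachypaced and 2.69 ± 0.581 FPKM in control libraries, with control replicate 1 at 2.03 FPKM among the tachypaced values (limma adjusted p = 0.192). Exons of 13 of the 44 genes overlap exons of another annotated gene, in GENCODE M21 on GRCm38. Among the genes that fell these are Ska3 (with Sap18) and Sgo2a (with Kctd18), both on opposite strands. Cenpb, Mis12 and Ska2, which lay higher in every tachypaced library, are also among them. Cenpb overlaps Spef1 on the same strand, and Mis12 (with Derl2) and Ska2 (with Gm11491) overlap genes on opposite strands. The strand setting used by the authors is not given in the sources used here, so reads of such pairs may have been assigned to either gene.

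The wider machinery of chromosome segregation was read from 5 lists of 65 genes, all of them tested, none of them among the 44. In tachypaced libraries 16 of the 65 fell and 0 rose (0 higher at an unadjusted p under 0.05), with a median log2 fold change of -0.23. Of all tested genes 3.22% fell and 2.3% rose (10.8% higher at an unadjusted p under 0.05), with a median of -0.04. Without control replicate 1, 40 fell, against 18.8% of all tested genes. Without any other single library 0 passed by limma, and at most 1 of all 10361 tested genes fell. In those fits 30 to 42 of the 65 were lower at an unadjusted p under 0.05, against 11.5% to 17.2% of all tested genes. Of 20 genes of the chromosomal passenger complex, mitotic kinases and other partners of the kinetochore, 2 fell. These were the checkpoint and error correction kinase Aurkb at 13.4 ± 1.31 FPKM in tachypaced and 23.0 ± 5.83 FPKM in control libraries, and its partner Birc5, or survivin, at 22.9 ± 0.713 FPKM in tachypaced and 30.2 ± 2.54 FPKM in control libraries. The kinases Plk1, Ttk and Cdk1 did not pass, with log2 fold changes of -0.39, -0.27 and -0.22 (limma adjusted p = 0.127, 0.136 and 0.118).

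Of 18 genes of the anaphase-promoting complex, which the checkpoint inhibits, 2 fell. They were the activator Cdc20, the direct target of the checkpoint, at 14.4 ± 1.95 FPKM in tachypaced and 22.1 ± 4.03 FPKM in control libraries, and the ubiquitin-conjugating enzyme gene Ube2c at 42.4 ± 3.85 FPKM in tachypaced and 58.5 ± 5.37 FPKM in control libraries. The median log2 fold change of these 18 genes was -0.13, against -0.04 for all tested genes, of which 3.22% fell. Of 11 cohesin and separase genes 3 fell, namely Cdca5 (sororin), Pttg1 (securin) and the cohesin subunit Smc1a, with log2 fold changes of -0.64, -0.42 and -0.31. Of 8 condensin genes, whose median log2 fold change was -0.43, 6 fell. Of them Ncapd2, Ncapg, Smc2 and Ncapd3 had the largest decreases at -0.68, -0.54, -0.43 and -0.42. Of 8 genes for proteins of kinetochore microtubules 3 fell, namely Kif2c, a microtubule-depolymerizing kinesin, Knstrn and Ckap5, with log2 fold changes of -0.43, -0.41 and -0.32. Whether these lists differ from one another or from the 44 genes was not tested.

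Genes commonly used to place single cells in the cell cycle were set beside these, with the 44 genes left out. Of 40 tested S phase genes 7 fell and 0 rose, at a median log2 fold change of -0.28. Of 44 tested G2 and M phase genes 27 fell and 0 rose, at a median of -0.41 (0 higher in either list at an unadjusted p under 0.05). Of all tested genes 3.22% fell and 2.3% rose, at a median of -0.04 (10.8% higher at an unadjusted p under 0.05). Of the G2 and M phase genes 12 also stand in the 5 lists above. Without control replicate 1 the counts were 26 and 42, in a fit where 18.8% of all tested genes fell. Without any other single library they were 0 in both by limma, with at most 1 of all 10361 tested genes. In those fits 56 to 67 of the 84 were lower at an unadjusted p under 0.05, against 11.5% to 17.2% of all tested genes. The median of the 44 kinetochore and checkpoint genes, -0.28, was thus at that of the S phase genes and above that of the G2 and M phase genes, a difference that was not tested.

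**Figure D4:**
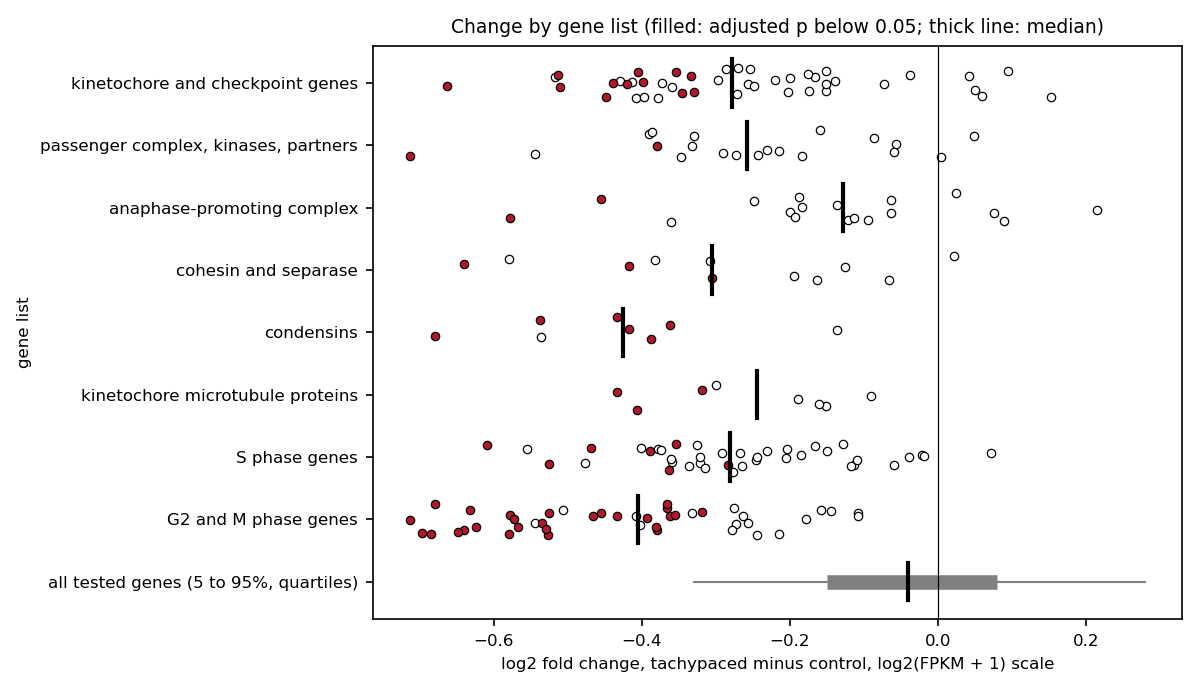
Each point is a gene, placed by its log2 fold change (tachypaced minus control), with filled points past the adjusted p threshold of 0.05 and a thick line at the median of each list. The bottom row gives the median (-0.04), quartiles (-0.15 and 0.08) and the 5th to 95th percentiles (-0.33 to 0.28) of all tested genes, and the medians of all 8 lists lie below that of all tested genes.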

How the data were processed

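The authors deposited 1 table of FPKM values with a row for each gene name and a column for each of the 6 libraries. Groups follow the titles and the treatment label, since the protocol text names tachypacing for all 6, and the labels name no batch. Libraries were made from total RNA with a SMARTER mRNA kit, per the labels' protocols. The submitters' processing notes name GRCm38 (mm10) as the build. The aligner, quantifier, annotation and strand setting: not given in the sources used here. Since FPKM scales with the total of a library, a shift in abundant genes moves all others. Library sums lay between 411050 and 432244 FPKM. Ratios of values under 0.1 FPKM between libraries put at most 5.15% in any bin of 0.05 (log2), so no step of whole reads was found and depth is unknown.

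Of 23060 genes, the 10361 that averaged 1 FPKM or more were tested as log2(FPKM + 1) by limma-trend (limma 3.58.1, R 4.3.3), two-sided, as tachypaced minus control and without covariates. P-values were adjusted after Benjamini-Hochberg over all of them, with a threshold of 0.05. On this scale the change of low genes is understated. With 3 libraries a group an exact permutation test reaches no p below 0.1, and none was run. The steps were tested on simulated data. No pair of libraries was identical.

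The 44 genes, the 5 pathway lists, the phase lists, the markers and the tests were chosen with earlier results of these data known. Full values are given for genes past the test and for the most abundant gene of each role. Pathway genes are named if past the test (at most 4 per list), and Aurkb, Birc5, Plk1, Ttk, Cdk1 and Cdc20 whatever their result. Alternatives were a pseudocount of 0.1, a minimum mean of 5 FPKM or none, 3 other scalings, limma without trend, with robust hyperparameters or with library weights, a threshold of 0.1, a block for the replicate number, and the loss of each library in turn. Positions are from GENCODE M21 and promoters from RefSeq on GRCm38.p6. Python 3.11.15 with pandas 2.3.3, numpy 2.4.6 and matplotlib 3.10.9 made tables and figures.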

Additional observations from a re-analysis of the deposited data

How the results depend on the processing

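The 44 genes kept a negative median log2 fold change in all 17 alternatives, from -0.34 to -0.24, and none of the 12 genes that fell changed sign in any. The counts of calls moved more. Of the 44 genes, 0 fell with no filter on low values and 0 by limma without trend, against 24 and 27 lower at an unadjusted p under 0.05, and 1 fell after quantile normalization (26 unadjusted), 25 with library weights and 23 at a threshold of 0.1. Of all tested genes 0, 0, 0.0386%, 18.7% and 12.1% fell with these settings. Of the 65 pathway genes the same settings gave 0, 0, 0, 39 and 34, with 38, 40 and 38 lower at an unadjusted p under 0.05 in the first 3, and rescaling to a common total gave 29. Of the 84 tested phase genes (86 with no filter), of which 34 fell, they gave 0, 0, 0, 68 and 60 (66, 68 and 63 unadjusted), and rescaling gave 52. Leaving out each library in turn gave 0 to 26 genes that fell among the 44 genes, 0 to 40 among the pathway genes and 0 to 68 among the phase genes. No gene of the 44 or of the pathway lists rose in any alternative. Median of ratios scaling left 8 of the 12. Changes of sign were confined to 3 genes with no call. Cenpk reached 0.025 with library weights, and leaving out each library in turn gave it 0.016 (without control replicate 1) down to -0.168. Cenpx reached 0.004 with median of ratios scaling, and the left-out libraries gave -0.104 to 0.064, with 0.064 without control replicate 2 and 0.006 without tachypaced replicate 1. Zw10 ran from -0.008 (without control replicate 2) to 0.133. With the replicate number as a block, 17 of the 44 genes fell, the 12 among them, and 26 pathway genes, with 5.7% of all tested genes. The labels tie same-numbered libraries by their number only. Correlations of their deviations were 0.0615, -0.034 and 0.157, against -0.156 to 0.0811 for libraries of unlike number. Not every library correlated best with its own number. With 3 libraries per group these values cannot decide whether libraries were paired. The cause of these shifts was not tested. Precision is limited by 3 libraries per group and by unknown depth, above all for the 16 genes under a mean of 5 FPKM.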

Other observations

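Partners within a complex were compared as ratios of FPKM within each library. Scaling a library by a single factor leaves such ratios unchanged, while quantile normalization can change them. The pairs were chosen after their values were seen and carry no test. Zwint stood at 11.1, 11.2 and 8.79 times Knl1 in tachypaced libraries, against 7.44, 7.46 and 6.39 times in control libraries. Ska2 stood at 1.58, 1.68 and 1.39 times Ska3 in tachypaced libraries, against 0.916, 0.991 and 0.865 times in control libraries. Mis12 stood at 1.76, 1.69 and 1.62 times Nsl1 in tachypaced libraries, against 1.26, 1.22 and 0.983 times in control libraries. In these 3 pairs every tachypaced ratio lay above every control ratio. Each sets a gene with a higher tachypaced mean over one with a lower tachypaced mean, so that the choice of pairs fixed this direction.

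The ratio of Cenpb to Cenpa, a sequence-specific centromere binder against the centromeric histone, was 0.353, 0.401 and 0.345 in tachypaced libraries, against 0.251, 0.248 and 0.221 in control libraries, also without overlap. Here too a gene higher in every tachypaced library stands over one lower in every tachypaced library, so the choice of the pair fixed this result. Other partners, each a pair of genes with lower tachypaced means, kept overlapping ratios, an outcome that this choice of pairs favoured. Bub3 to Bub1 was 0.841, 0.824 and 0.825 in tachypaced libraries, against 0.693, 0.826 and 0.753 in control libraries, with overlap through control replicate 2. Hjurp to Cenpa, the chaperone against its histone, averaged 0.579 ± 0.0172 in tachypaced and 0.547 ± 0.0187 in control libraries (SD, n = 3 each). Nuf2 to Ndc80 averaged 2.06 ± 0.0961 in tachypaced and 2.34 ± 0.230 in control libraries, and Spc25 to Spc24 averaged 2.20 ± 0.574 in tachypaced and 2.08 ± 0.151 in control libraries. Mad1l1 to Mad2l1 averaged 0.503 ± 0.0421 in tachypaced and 0.557 ± 0.0527 in control libraries.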
